A study of Canis lupus familiaris with 39 samples.

Results

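Skeletal muscle was compared with 9 other organs of the dog. The 4 arrays labelled as normal skeletal muscle, of 39 arrays in all, were set against the unweighted mean of the 9 other organ means, over all probesets of the array. Heart, brain, liver, lung, spleen, lymph node, jejunum and kidney had 4 arrays each, and pancreas had 3. All samples were pathologically normal tissue of 4 dogs, male and female, beagles and mixed breeds, from puppies to adults. The sources name neither the muscle sampled nor the dog behind each array, and each array read whole tissue, so fewer cells of a type and less RNA per cell cannot be told apart.

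Skeletal muscle fibres are long cells filled with sarcomeres, in which thick filaments of myosin pull on thin filaments of actin. Troponin and tropomyosin on the thin filament switch the pull on when calcium leaves the sarcoplasmic reticulum. Fast fibres, slow fibres and heart muscle use different members of the same gene families, fast fibres rely largely on glycogen and glycolysis, and slow fibres and heart rely largely on mitochondria.

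The values are log2 intensities of RNA hybridised to the Affymetrix Canine Version 2.0 array, between 2.61 and 14.74, with array medians from 3.95 to 4.11. A value near 4 therefore lies at the level of most probesets. Pearson's r between the muscle arrays was 0.889 to 0.962, against 0.935 to 0.995 between the arrays of any other organ, so the muscle arrays differed more from each other. Muscle arrays 1, 3 and 4 carried transcripts of pancreatic enzymes and array 1 was low for many muscle genes, both described at the end. Brain arrays 1 and 3 carried muscle transcripts (troponin C TNNC2 at 6.51 and 8.02), and without these 2 arrays no count of calls over all probesets moved by over 1.5 times.

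The 4 genes used to check the tissue label were high on every muscle array. TNNC2, the calcium-binding troponin C of fast fibres, had 13.23, 13.54, 13.31 and 13.56 on muscle arrays 1 to 4, against a lowest of 3.41, a median of 3.74 and a highest of 8.02 on the 35 other arrays. TNNI2, the fast inhibitory troponin, had 13.73, 13.45, 13.67 and 13.48 on the muscle arrays, against a median of 4.67 and a highest of 10.1 elsewhere. ACTN3, the alpha-actinin of fast fibres that anchors thin filaments at the Z-disc, had 11.81, 11.32, 11.86 and 11.31 in muscle and at most 5.06 elsewhere. MYL1, a light chain of fast myosin, had 11.20, 12.69, 12.54 and 12.83 in muscle and at most 6.92 elsewhere. No muscle array overlapped with any other array for these genes, and the differences of means were 9.44, 8.47, 7.58 and 8.13 on the log2 scale for TNNC2, TNNI2, ACTN3 and MYL1.

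Of 42860 probesets, 6511 (15.2%) differed between skeletal muscle and the other organs at a false discovery rate (FDR) of 0.001 in limma's moderated test, with Benjamini-Hochberg adjustment over all probesets. Higher in muscle were 3024 (7.06%) and lower were 3487 (8.14%), so that 46.4% of the calls were higher. That balance depends on the scaling: with each array shifted to an equal median of 13 genes of broad expression, every difference changed by 0.27 and 66.5% of 5103 calls were higher. With 13 common reference genes instead, a choice made after seeing the data, every difference changed by 0.52 and 82.4% of 3741 calls were higher. The reference genes themselves had differences between -1.99 and 1.64, so they are no fixed standard. The counts of lower genes given here rest on the scale of the deposited values, while differences of several log2 units are little affected.

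The higher genes reached far larger differences than the lower ones, whose size is bounded by the lowest signal of the array. Over 10-fold higher were 365 probesets (0.852%) with 174 unique gene symbols, and 61 probesets were over 100-fold higher, up to 742-fold. The largest difference in the other direction was 22.1-fold, and 521 probesets (1.22%) were over 4-fold lower. All 4 muscle arrays lay above all 35 others for 316 probesets (0.737%) and below all of them for 67 (0.156%). Selective probesets, called over 10-fold higher and with no other organ above 3-fold in its own contrast, numbered 90 (0.21%), of which 17 have no gene symbol. With each gene represented by its brightest probeset, 1174 of 15115 genes were higher (7.77%) and 1522 were lower (10.1%), 143 were over 10-fold higher (0.946%) and 125 lay above all other arrays on every muscle array (0.827%). The median difference over all genes was -0.02.

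The fast fibre genes made up the leading group. Of 17 measured, 15 were higher than in the other organs and the same number higher than in heart, with a median difference of 7.58 from the 9 organs and 7.36 from heart. MYLPF, the regulatory light chain of fast myosin, had 13.10, 13.28, 13.56 and 13.35 on the muscle arrays, against at most 8.25 on the others (brain array 3), a difference of 9.28 (622-fold, SE 0.34, adjusted p = 1.76e-20). TNNT3, the fast tropomyosin-binding troponin, had 11.41, 13.09, 12.68 and 12.94 in muscle and at most 4.72 elsewhere (392-fold, SE 0.17 on the log2 scale, adjusted p = 2.46e-28). MYBPC2, the fast myosin-binding protein C that braces the thick filament, had 11.29 ± 0.49 in muscle and 4.32 ± 0.05 in heart and differed from the 9 organs by 6.6. For each of these genes the lowest muscle array was above the highest array of any other organ.

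MYH2, a myosin heavy chain of fast oxidative fibres, was even across the muscle arrays at 13.28, 12.89, 13.29 and 13.13, against a median of 3.47 and a highest of 8.42 elsewhere (616-fold). MYH1, another fast myosin heavy chain, had 11.18, 13.34, 8.60 and 13.11, and MYH3, the embryonic form, had 10.99, 12.62, 8.34 and 11.08 on arrays 1 to 4. Both were lowest on array 3 and highest on array 2, although all 4 arrays stood above all others. Without array 3 the difference was 8.82 for MYH1 and 7.68 for MYH3, against 7.83 and 6.88 over all 4 arrays and 7.24 and 6.25 without array 2. Myosin heavy chains are close in sequence and their probesets may share signal, and of 3 MYH1 probesets 2 were called. Both MYH3 probesets were called higher, but the other one by only 0.67, and 1 of the 2 was higher than in heart. Fast genes also included MYOZ1 (11.71 ± 0.22 in muscle against 4.91 ± 0.54 in heart, mean ± SD, n = 4 arrays each), a Z-disc protein that binds calcineurin, and TMOD4, a cap of thin filament ends (10.97 ± 0.35 against 3.61 ± 0.10).

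ATP2A1, the calcium pump of fast fibres, showed how a probeset can decide a call. Its brightest probeset did not differ (-0.61, adjusted p = 0.00325), while another, chosen after its values were seen, had 13.14, 13.44, 13.21 and 13.64 on the muscle arrays and was 435-fold higher (adjusted p = 1.83e-28). Of its 3 probesets 2 were higher.

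Slow fibre genes reached similar differences from the 9 organs, and most but not all were high in heart too. Of 11 measured, 10 were higher than in the other organs (median difference 7.22), whereas against heart 3 were higher and 3 lower, with a median of -0.43. MYL2, the slow and ventricular regulatory light chain, had 13.24, 13.14, 12.78 and 13.15 in muscle and 13.47 ± 0.17 in heart (adjusted p = 0.669), against a median of 3.68 and a highest of 7.16 (brain array 3) in the other 8 organs. TNNC1, the troponin C that slow fibres and heart share, had 12.92 ± 0.26 in muscle and 13.35 ± 0.03 in heart (adjusted p = 0.313). MYH7, the slow and ventricular myosin heavy chain, had 12.52 ± 0.37 in muscle and 13.39 ± 0.09 in heart, which did not pass the threshold (adjusted p = 0.0214). Of 5 MYH7 probesets, however, 2 were called lower than in heart, and 4 were higher than in the 9 organs. MYL3, the slow and ventricular essential light chain, had 12.69, 11.99, 12.60 and 11.79 in muscle and 13.12 ± 0.13 in heart. Its difference from heart of -0.85 was called, but not without muscle array 2 (-0.75) or 4 (-0.69) or heart array 1 (-0.80), 3 (-0.87) or 4 (-0.82).

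Those above heart were MYBPC1, TNNT1 and MYL6B. MYBPC1, the slow myosin-binding protein C, had 12.21, 12.76, 12.69 and 12.82 in muscle and 3.55 ± 0.16 in heart, and it had the largest difference of the list (8.84 from the 9 organs, 9.07 from heart). TNNT1, the slow tropomyosin-binding troponin, had 12.86, 12.65, 12.55 and 11.96 in muscle and 9.09 ± 1.09 in heart, a difference of 3.41 (adjusted p = 1.1e-10). MYL6B, a myosin light chain found in slow fibres, was 4.62 above heart, while the Z-disc protein MYOZ2 differed from heart by -1.82 (not called with the common reference genes, -1.59) and CSRP3, a LIM protein of the Z-disc, by -2.85. ATP2A2, the calcium pump of slow fibres and heart, had 12.62 ± 0.14 in muscle and 12.85 ± 0.19 in heart.

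**Figure D1:**
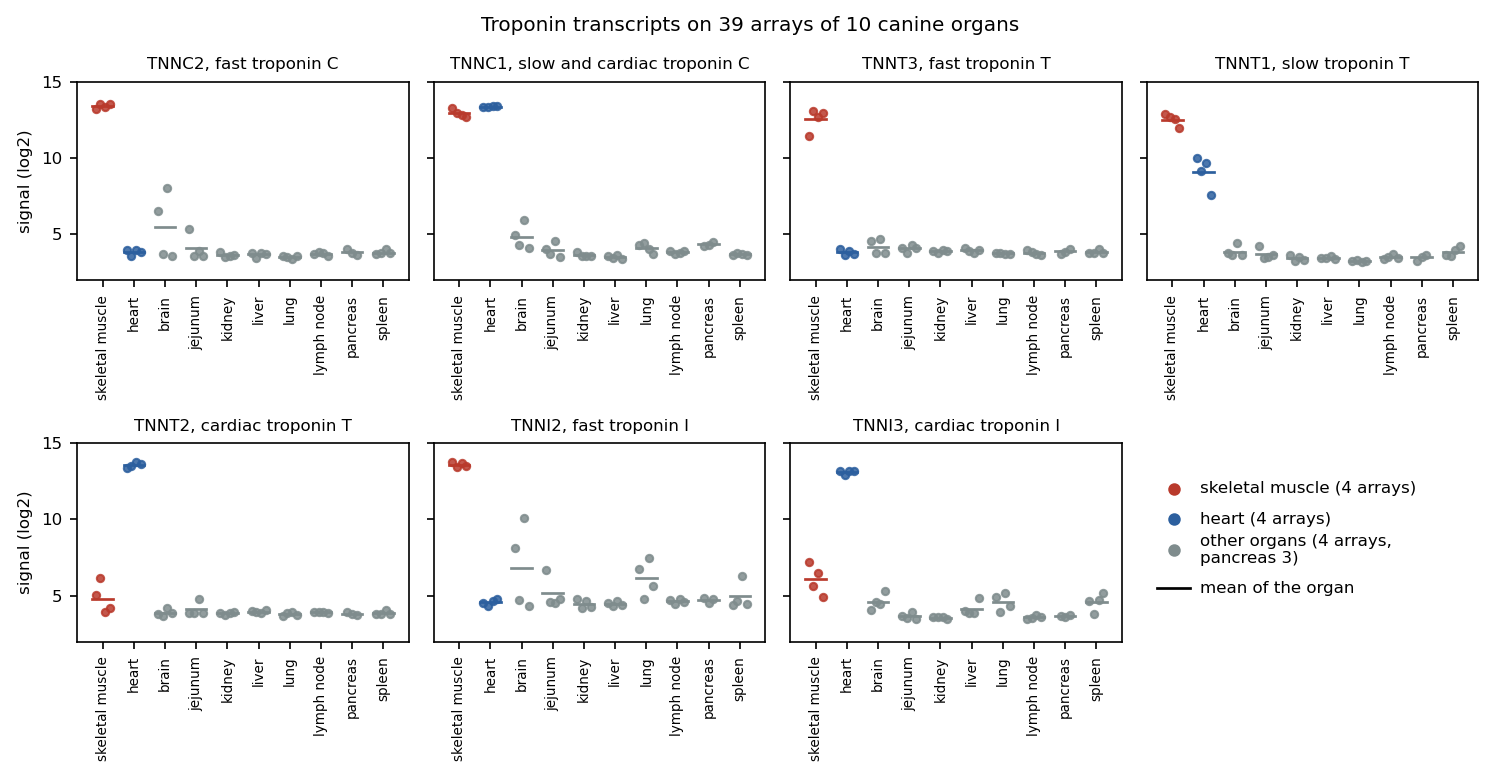
Log2 intensity (vertical axis) of 7 troponin genes on each of the 39 arrays, a point per array, by organ along the horizontal axis with skeletal muscle first and heart next to it. The fast troponins have means of 12.53 to 13.58 in skeletal muscle, far above every other organ. The highest other means are those of TNNI2 in brain (6.84) and lung (6.17), and brain arrays 1 and 3 are raised for TNNC2. TNNC1 is high in muscle and heart, and the cardiac forms TNNT2 and TNNI3 are high in heart.

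The heart forms of these families were far lower in skeletal muscle than in heart. Of 19 genes of the heart muscle list, 13 were lower than in heart and 0 higher (median -2.95), although limma called 2 of them higher and 4 lower against the 9 organs together. The 4 lower calls were 2 without array 3, 1 at an equal median of the genes of broad expression and 0 with the common reference genes. TNNT2, the cardiac tropomyosin-binding troponin, had 5.03, 6.15, 3.91 and 4.17 in muscle and 13.57 ± 0.19 in heart, a difference of -8.75 (adjusted p = 6.47e-23). TNNI3, the cardiac inhibitory troponin, had 7.24, 5.66, 6.46 and 4.95 in muscle and 13.12 ± 0.13 in heart (-7.04). MYBPC3, the cardiac myosin-binding protein C, had 4.05 ± 0.19 in muscle and 11.69 ± 0.09 in heart (-7.65), and RYR2, the calcium release channel of heart, 3.57 ± 0.15 and 11.45 ± 0.19 (-7.88). For these 4 genes the muscle and heart arrays did not overlap.

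Several heart genes had intermediate and uneven levels in muscle. ACTC1, cardiac alpha-actin, had 7.58, 8.88, 5.67 and 4.58 in muscle and 12.74 ± 0.23 in heart, and the difference was -6.06 (-6.8 without muscle array 2, -5.36 without array 4). ANKRD1, a stress-responsive protein of the sarcomere, had 7.45, 9.53, 4.01 and 7.37 in muscle and was higher than in the 9 organs (2.50; 3.53 without array 3 and 1.69 without array 2) yet lower than in heart (-5.72; -4.69 without array 3 and -6.53 without array 2). PLN, the inhibitor of the ATP2A2 pump, had 10.14 ± 0.51 in muscle and 11.56 ± 0.13 in heart and was 4.53 above the 9 organs. The atrial light chain MYL7 differed from the mean of the 9 organs by -0.98, but lost that call when any muscle array was left out, and CORIN, the heart protease that activates natriuretic peptide, lost its call (-0.56) without array 3 (-0.53, adjusted p = 0.00144).

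Of the contractile lists, sarcomere structure and its upkeep held the most genes, with 44 of 48 genes higher, 1 lower and a median difference of 4.19. MYOT, a Z-disc protein, had 11.83, 12.35, 11.74 and 12.48 in muscle and at most 7.75 elsewhere (322-fold), and it was 5.78 above heart (4.87 without heart array 2). KLHL41, which stabilises nebulin, had 10.91, 12.47, 11.46 and 12.27 in muscle against 9.64 ± 0.47 in heart, the next organ. TPM2, a tropomyosin, had 12.89 ± 0.58 in muscle but also reached 13.08 on a jejunum array, and it was 6.08 above heart. DES, desmin of the intermediate filaments, had 11.25 ± 0.64 in muscle and 11.35 ± 0.22 in heart.

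The giant proteins were read by many probesets. All 20 probesets of TTN, titin, the spring of the sarcomere, were higher than in the other organs, and 9 were higher than in heart. Its brightest probeset had 12.77 ± 0.42 in muscle and 12.27 ± 0.49 in heart (adjusted p = 0.715), whereas another, picked after its values were seen, had 8.39, 9.96, 10.38 and 8.80 in muscle and 3.31 in heart on average (adjusted p = 1.29e-19). The size of the TTN difference from heart thus depended on the probeset. NEB, nebulin, the ruler of the thin filament, had 7.22, 11.74, 10.50 and 11.58 in muscle, with array 1 far below the rest, and was 5.98 above the other organs and 5.41 above heart (7.0 and 6.42 without array 1). All 8 NEB probesets were higher, and 6 were also higher than in heart.

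TPM1, another tropomyosin, was the member called lower, and this too rested on the probeset. Its brightest had 9.14, 9.27, 6.31 and 9.05 in muscle, against a lowest of 8.44 and a median of 10.83 elsewhere (-2.32; -1.61 without array 3). A second TPM1 probeset had 11.34, 13.28, 13.14 and 13.06 in muscle and was 4.06 higher.

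Genes of excitation-contraction coupling, which carry the nerve signal from the surface membrane to calcium release, were higher for 15 of 26 and lower for 0, with a median difference of 0.85. Against heart 9 were higher. CACNA1S, the voltage sensor of skeletal muscle, had 8.78, 9.90, 9.68 and 9.45 in muscle and at most 4.36 elsewhere (42.7-fold, adjusted p = 4.11e-28). STAC3, which couples that sensor to the release channel, had 8.08, 8.57, 8.92 and 8.71 against at most 4.34. Muscle and the other arrays did not overlap for either gene.

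CASQ1, the calcium store protein of fast fibres, had 6.02, 10.06, 9.27 and 9.55, and CACNG1, a subunit of the same channel as CACNA1S, had 5.35, 9.88, 9.01 and 8.81 on arrays 1 to 4. Array 1 was lowest for both, and without it the differences were 5.71 for CASQ1 (4.81 with it) and 5.84 for CACNG1 (4.87 with it). STRIT1, a small membrane protein that raises calcium pump activity, was highest on array 1, with 12.12, 11.13, 11.13 and 10.81, and 224-fold higher in muscle. At the neuromuscular junction 3 of 15 genes were higher and 1 lower. RAPSN, which clusters acetylcholine receptors, had 5.26, 7.12, 8.14 and 7.49 in muscle (difference 3.32), and the receptor subunit CHRNB1 had 5.94 ± 0.53 in muscle and 4.54 ± 0.18 in heart (1.39, adjusted p = 1.21e-07, but not called with the common reference genes).

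**Figure D2:**
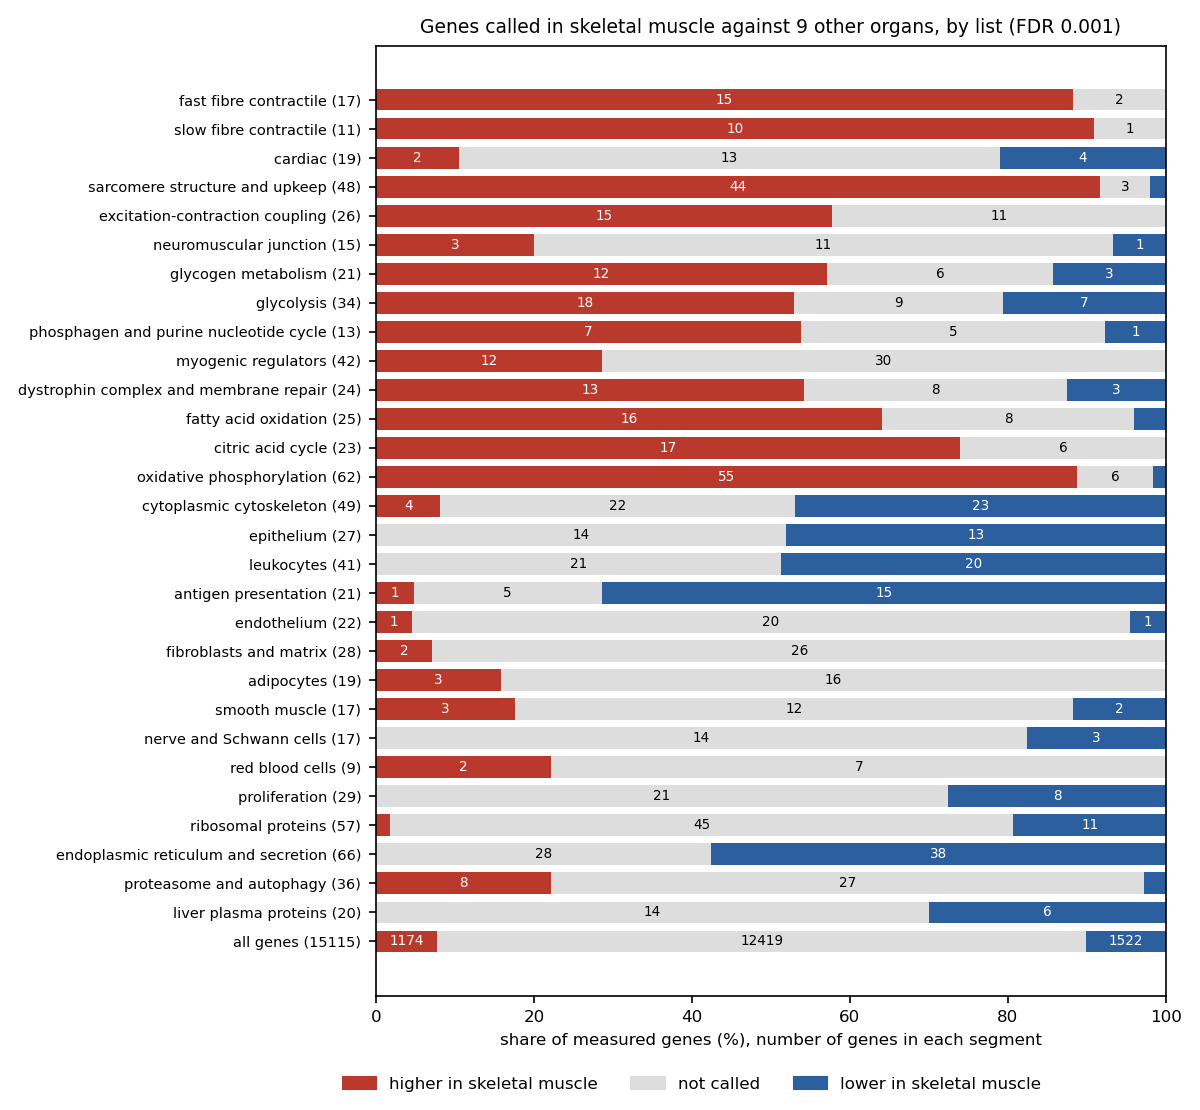
Share of the measured genes of each gene list (percent, horizontal axis) called higher in skeletal muscle, not called or called lower against the 9 other organs at an FDR of 0.001, a bar per list, with all 15115 genes as a bar of their own. Contractile and mitochondrial lists are mostly higher, and the lists of antigen presentation, endoplasmic reticulum, cytoskeleton and epithelium are mostly lower or not called.

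Genes that store and break down glycogen were higher for 12 of 21 and lower for 3, with a median difference of 1.43. The lower count was 1 without array 3 or 4 and 0 with the common reference genes. PYGM, muscle glycogen phosphorylase, had 11.06, 12.43, 12.19 and 12.63 in muscle, against 11.01 ± 0.41 in heart and a median of 3.87 over all other arrays (131-fold, adjusted p = 3.19e-23). PYGB, the brain form of the same enzyme, had 6.37 ± 0.59 in muscle and 10.26 ± 0.45 in heart and a difference of -1.38 from the 9 organs. Of 3 PYGB probesets 1 was called lower and 1, at 3.28 in muscle and near the lowest values of the array, was called higher by 0.24. PHKG1, the muscle catalytic subunit of phosphorylase kinase, was 4.18 higher. PPP1R1A, an inhibitor of protein phosphatase 1, had 11.74, 11.44, 11.54 and 11.65 in muscle and at most 10.38 elsewhere, and PPP1R27, a regulatory subunit of that phosphatase, 10.54, 10.03, 12.39 and 10.78 against at most 4.37 (149-fold).

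Muscle isozymes of glycolysis were higher while their broadly expressed relatives were lower. The list had 18 of 34 genes higher and 7 lower, and the lower count was 4 without muscle array 2 and 3 without array 4. PGAM2, muscle phosphoglycerate mutase, had 11.87, 11.95, 11.93 and 12.07 in muscle and at most 11.78 elsewhere, in heart (125-fold), while PGAM1 had 8.65, 7.70, 8.79 and 8.55 in muscle against a median of 10.63 (-2.19). ENO3, muscle enolase, was 6.67 higher with 12.88 ± 0.59 in muscle and 12.30 ± 0.17 in heart, and ENO1 differed by -1.06. PFKM, muscle phosphofructokinase, was 4.42 higher and PFKP, the platelet form, differed by -1.76. FBP2, muscle fructose-bisphosphatase, had 10.69 ± 0.30 in muscle and 5.76 ± 0.49 in heart.

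Of 13 phosphagen and purine nucleotide genes, which buffer ATP, 7 were higher and 1, AMPD2, was lower. AMPD1, the AMP deaminase of muscle, had 10.08, 11.38, 9.32 and 10.81 in muscle and at most 3.49 on the 35 other arrays (140-fold, adjusted p = 4.3e-27), and AMPD2 differed by -1.54. ADSS1, the muscle adenylosuccinate synthase, was 6.2 higher, with no difference called from heart (11.07 ± 0.39 in muscle, 10.55 ± 0.32 in heart, adjusted p = 0.548), and ADSS2, which is outside the list and was chosen after its values were seen, differed by -2.5. CKMT2, the creatine kinase of muscle mitochondria, had 11.76 ± 0.64 in muscle and 11.61 ± 0.28 in heart. AK1, an adenylate kinase, was 5.34 higher than in the 9 organs in 1 of its 2 probesets, and the other was at 0.08.

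The lower member of some of these pairs depended on the scaling. At an equal median of the genes of broad expression ENO1 was no longer called (-0.79), and with the common reference genes PYGB (-0.86), PFKP (-1.23) and AMPD2 (-1.02) were not called either. PGAM1, ADSS2 and the pairs named next kept both calls under either scaling.

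**Figure D3:**
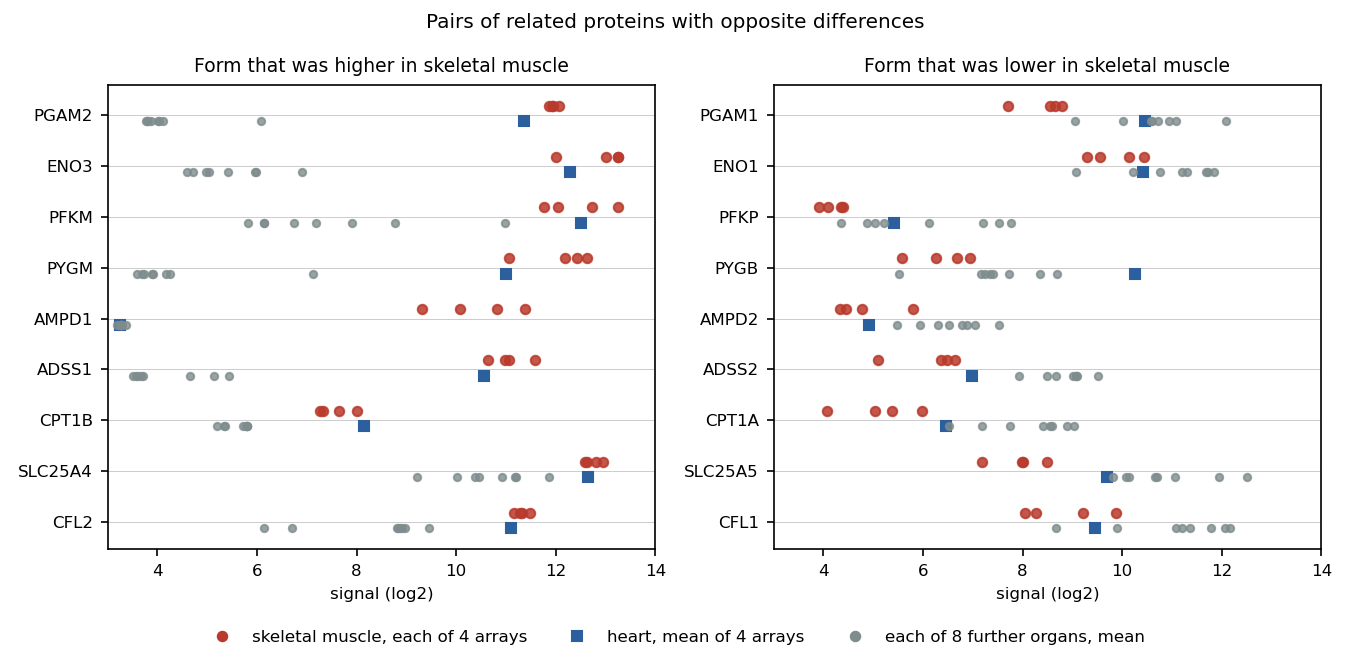
Log2 intensity of 9 pairs of related genes, the muscle form and the broadly expressed form side by side, with a dot for each of the 4 skeletal muscle arrays, a square for the heart mean and small marks for the means of the 8 further organs. In muscle the first form of each pair lies above most or all organ means and the second form lies toward the low end.

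Mitochondrial genes were broadly higher than in the 9 organs and close to, or below, heart. Of 62 genes of oxidative phosphorylation 55 were higher and 1 lower with a median difference of 1.27, and 17 of 23 citric acid cycle genes were higher and 0 lower (median 1.28). Against heart, 0 genes of oxidative phosphorylation were higher in limma's test and 1 was lower (median -0.28). The mean level of that list was 11.20 ± 0.20 in muscle and 11.51 ± 0.07 in heart, above every other organ, and at an equal median of the genes of broad expression muscle (11.45) was above heart (11.13). COX6A2, the heart and muscle form of a cytochrome oxidase subunit, had 12.05, 11.61, 11.64 and 11.61 in muscle and 11.80 ± 0.27 in heart (60.6-fold above the 9 organs), and COX7A1, another such form, was 3.51 higher. COX8A, a cytochrome oxidase subunit of broad expression, was called lower (-0.82), and this call was lost without array 1 (-0.78) or array 2 (-0.58) and under either scaling.

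Of 25 genes of fatty acid oxidation, 16 were higher and 1 was lower, with a median of 1.08 above the 9 organs and -0.55 from heart. FABP3, which carries fatty acids in the cytosol, had 11.22 ± 0.14 in muscle and 11.66 ± 0.16 in heart (15-fold above the 9 organs). CPT1B, the muscle enzyme that lets long-chain fatty acids into mitochondria, was 1.68 higher, and CPT1A, the liver form, differed by -2.81. Of 2 CPT1A probesets 1 was called lower, and the other was at 0.11. The carrier SLC25A4, which exchanges ADP and ATP across the inner membrane, was 1.87 higher, and its relative SLC25A5 had 7.18, 8.01, 8.49 and 7.98 in muscle, below the lowest of all other arrays (9.25). UCP3, an uncoupling protein of muscle, had 10.31, 9.21, 10.98 and 10.70 in muscle and 7.95 ± 1.89 in heart. MB, myoglobin, had 10.63, 12.52, 13.22 and 13.11 in muscle and 13.03 ± 0.07 in heart, with array 1 lowest.

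PPARGC1A, a coactivator that drives mitochondrial genes, differed between the muscle arrays, with 3.75, 7.64, 7.73 and 8.22. It was not called (1.44, adjusted p = 0.00727), but was called at 2.47 without array 1 (adjusted p = 2.32e-08).

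**Figure D4:**
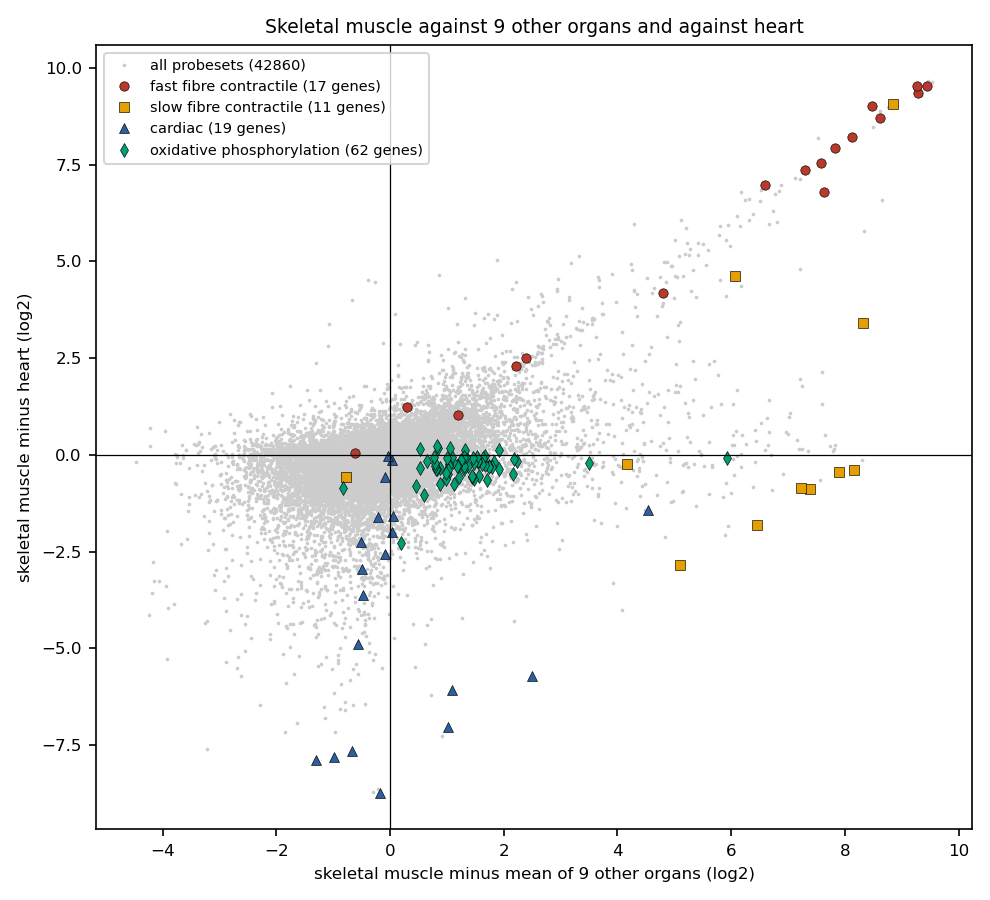
Each of 42860 probesets by its log2 difference between skeletal muscle and the 9 other organs (horizontal axis) and between skeletal muscle and heart (vertical axis), in grey, with the brightest probeset of fast fibre, slow fibre, heart muscle and oxidative phosphorylation genes in colour. Fast genes lie high on both axes, slow genes are high on the horizontal axis with a median of -0.43 on the vertical, where MYBPC1, MYL6B and TNNT1 lie well above 0 and CSRP3 below, heart genes lie far below 0 on the vertical axis, and oxidative phosphorylation genes lie slightly right of 0.

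Of 24 genes of the dystrophin complex and membrane repair, which hold the fibre membrane together under load, 13 were higher and 3 lower, with a median difference of 1.22. RTN2, a reticulon of muscle membranes, had 8.52, 10.40, 11.06 and 10.36 in muscle and 5.97 ± 1.37 in heart (60-fold above the 9 organs; 4.12 above heart, and 4.73 without heart array 4). TRIM72, which patches torn membrane, had 5.0, 8.61, 8.34 and 7.54 in muscle and 3.83 ± 0.08 in heart (3.56 above the 9 organs, and 4.35 without array 1). CAV3, the caveolin of muscle, had 9.87, 10.84, 11.03 and 8.37 in muscle and 9.93 ± 0.19 in heart, and BVES, a membrane protein that binds cyclic AMP, had 8.13 ± 0.57 and 7.33 ± 0.25. RTN2 and TRIM72 were thus above heart, and for CAV3 and BVES no difference from heart was called. Of 3 TRIM72 probesets 2 were higher than in the 9 organs and 1 was higher than in heart.

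Of 42 regulators and other genes of myogenesis 12 were higher and 0 lower. MYF6, the myogenic factor of mature fibres, had 5.69, 8.18, 7.81 and 8.17 in muscle and at most 4.16 on the other arrays (3.58; 4.17 without array 1). TBX15, a T-box factor linked to fast glycolytic fibres in mouse, had 3.64, 6.63, 6.20 and 6.36 (2.17; 2.86 without array 1) and overlapped with the other arrays only through array 1. MEF2C, a partner of the myogenic factors, had 7.48, 10.00, 8.80 and 9.08 in muscle but reached 8.48 in lymph node, and TEAD4 had 6.16, 4.73, 7.05 and 4.74 in muscle and at most 4.45 elsewhere. Other genes of large difference were APOBEC2, a deaminase-like protein of striated muscle (148-fold), RPL3L, the striated muscle form of a ribosomal protein (65.5-fold), CA3, a carbonic anhydrase (79.9-fold; 7.11 on the log2 scale without array 1, against 6.32 with it), and TUBA8, a tubulin (18.7-fold). RPL3L had 10.99, 10.57, 11.16 and 10.61 in muscle and 10.32 ± 0.15 in heart, and it was the only one of 57 ribosomal protein genes called higher, while 11 were lower (7 without array 3, 5 without array 4, and 1 with each array shifted to an equal median of the genes of broad expression).

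A pair of probesets with no gene symbol was among the selective ones. CfaAffx.9807.1.S1_s_at had 9.89, 10.64, 11.02 and 10.60 on the muscle arrays and organ means of at most 4.20 elsewhere (114-fold), and CfaAffx.9807.1.S1_at was 92.6-fold higher.

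Several of the genes with the largest fold lower are epithelial. MGST1, a microsomal glutathione transferase, had 7.24, 3.43, 3.85 and 4.83 in muscle, against a median of 9.03 on the other arrays (18.6-fold lower, adjusted p = 6.83e-09; -4.22, and -5.02 without array 1). EPCAM, an epithelial adhesion molecule, had 3.57 ± 0.18 in muscle and 3.56 ± 0.25 in heart, against a median of 8.08 on the other arrays (12.4-fold lower). SPINT2, an inhibitor of epithelial serine proteases, CDS1, an enzyme of phospholipid synthesis, and SLC9A3R1, a scaffold at the apical membrane, were 12.7-fold, 12.7-fold and 13.5-fold lower. Called lower were 2 of 2 CDS1 probesets, 1 of 2 for SPINT2 (the other -0.08) and 1 of 2 for SLC9A3R1 (the other -0.64). KRT18, a keratin of simple epithelia, had 6.95, 4.16, 4.11 and 4.32, with array 1 highest (-3.32; -4.01 without array 1). Of 27 epithelial genes 13 were lower and 0 higher, and the lower count was 10 at an equal median of the genes of broad expression and 8 with the common reference genes. Against heart 0 of the 27 were called, with a median difference of 0.077.

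Genes of leukocytes and of antigen presentation were lower than in the 9 organs together as well. Of 41 leukocyte genes 20 were lower and 0 higher (median difference -1.05), and of 21 antigen presentation genes 15 were lower and 1 was higher (median -1.98). Against heart 0 genes of either list were called, with medians of 0.095 and -0.087. The mean level of the leukocyte list was 4.27 in muscle and in heart, 4.23 in kidney and 4.24 in pancreas. LAPTM5, a lysosomal protein of blood cells, had 5.28, 4.18, 4.90 and 4.03 in muscle, against a median of 8.51, and CORO1A, an actin-binding protein of leukocytes, had 4.4, 4.23, 4.20 and 4.19 against 7.90. Only 1 of 3 LAPTM5 probesets and 1 of 2 CORO1A probesets were called lower. CD74, the invariant chain of class II molecules, had 6.28 ± 0.29 in muscle and 6.78 ± 0.43 in heart and differed by -2.97 from the 9 organs, and PSMB8, a subunit of the immunoproteasome, by -2.4. The class II gene DLA-DQB1 differed by -3.08, and the class I gene DLA88 by -2.28 (-1.6 without array 1). Of 2 DLA88 probesets 1 was called lower, and the other was at 0.22.

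DLA-79, a non-classical class I gene, went the other way, with 10.14, 9.72, 10.69 and 9.96 in muscle and 6.91 ± 1.42 in heart. It was 3.37 above the 9 organs (adjusted p = 1.39e-05), although a lymph node array reached 10.74. All 3 of its probesets were higher, and class I genes of the dog are alike in sequence, so signal may be shared between them. With each array shifted to an equal median of the genes of broad expression the numbers lower were 11 of the leukocyte list and 11 of the antigen presentation list, and with the common reference genes 6 and 9.

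Cytoskeletal genes of non-muscle cells were lower for 23 of 49 and higher for 4. CFL1, the cofilin that severs actin in most cells, had 9.87, 9.21, 8.04 and 8.28 in muscle against a median of 11.27 (-2.0), whereas CFL2, the muscle cofilin, had 11.49, 11.29, 11.17 and 11.33 and was 2.67 higher. ACTG1, cytoplasmic gamma-actin, had 9.81 ± 0.82 in muscle and 10.63 ± 0.09 in heart, against a median of 12.21 over all other arrays (-2.17), and EZR, which ties actin to the membrane, differed by -2.95. EPB41L3, a band 4.1 protein of the membrane skeleton, had 4.86, 4.56, 3.20 and 4.08 in muscle and 9.45 ± 0.54 in heart, a difference of -5.27 from heart, and it was 15.2-fold lower than in the 9 organs. Of 8 EPB41L3 probesets 4 were called lower. The count of lower cytoskeletal genes was 18 at an equal median of the genes of broad expression and 8 with the common reference genes.

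Genes of the endoplasmic reticulum and secretion were lower for 38 of 66 and higher for 0, with a median difference of -0.94. Their mean level in muscle, 7.52 ± 0.17, lay below brain (7.74 ± 0.07) and heart (7.80 ± 0.04) on the deposited scale, and pancreas was highest (9.14 ± 0.10). That order depends on the scaling: muscle was at 7.77 and heart at 7.42 at an equal median of the genes of broad expression, and muscle was at 8.03 and brain at 7.24 with the common reference genes. SEC61B, a subunit of the channel through which proteins enter the endoplasmic reticulum, had 8.53, 7.88, 7.25 and 7.36 in muscle and 7.69 ± 0.38 in heart, against a median of 10.00 over the other arrays. PDIA3, which helps glycoproteins fold, differed by -2.97 and SEC63, a partner of the channel, by -2.08. The number lower was 26 at an equal median of the genes of broad expression, 5 with the common reference genes and 7 with muscle array 2 as the sole muscle array.

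Below every other array on all 4 muscle arrays were 28 genes (0.185%). RTN3, a protein that shapes the endoplasmic reticulum, had 5.40, 5.26, 4.69 and 5.28 in muscle, against a lowest of 6.02 and a median of 8.67 elsewhere (10.2-fold lower, adjusted p = 2.27e-20). TKT, transketolase of the pentose phosphate pathway, had 6.48, 6.36, 6.15 and 6.88 against a lowest of 7.13, and SLC25A1, the mitochondrial citrate carrier that feeds lipid synthesis, had 4.31, 4.97, 4.05 and 4.38 against a lowest of 5.05. UGDH, which makes the sugar donor for glucuronidation and matrix polysaccharides, had 3.31 ± 0.30 in muscle and 3.97 ± 0.22 in heart. Also in this group were SH3BGRL2 (15.1-fold lower), SCG5, a chaperone of secretory granules (11.9-fold), AS3MT, an arsenic methyltransferase (5.74-fold), YWHAQ, a 14-3-3 protein (4.63-fold), and PTPRK, a receptor tyrosine phosphatase (4.51-fold). Called lower were 2 of 3 RTN3 probesets (differences from -3.35 to -0.21), 1 of 2 for UGDH (the other -1.36) and 1 of 2 for PTPRK (the other -0.31).

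Lower by a large factor without lying below every array were FADS1, a fatty acid desaturase (15.4-fold), the glutamate transporter SLC1A1 (12-fold), PGRMC1, a haem-binding membrane protein (11.6-fold; -3.53, and -2.87 without array 3), FGFR2, a receptor for fibroblast growth factors (10.3-fold), and PSAT1, an enzyme of serine synthesis (10.3-fold). FADS1 had 4.63, 4.25, 4.15 and 4.31 in muscle and 7.73 ± 0.38 in heart, although its jejunum mean was the lowest of the other organs. PSAT1 had 4.72, 6.52, 4.29 and 4.33 in muscle and 4.64 ± 0.40 in heart, so muscle and heart overlapped. Only 1 of 3 PSAT1 probesets and 1 of 3 FGFR2 probesets were called lower.

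The direct comparison with heart had fewer calls than that with the 9 organs together. In all 1704 probesets differed from heart (3.98%), of which 603 were higher (1.41%) and 1101 lower (2.57%), with 226 genes higher (1.5%) and 394 lower (2.61%). The comparisons share the muscle and heart arrays. At an equal median of the genes of broad expression every difference from heart changed by 0.63, which turned the medians of the slow fibre, oxidative phosphorylation and fatty acid oxidation lists positive, and with the common reference genes it changed by 0.23, which turned none of these 3 positive. The medians of the fast fibre and heart muscle lists kept their sign under both.

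The pancreatic enzyme transcripts were set aside when genes were named, but are part of the counts above. Without the 188 probesets over 10-fold higher in pancreas the counts were 3008 higher, 3405 lower, 360 over 10-fold higher and 90 selective. PNLIP, pancreatic lipase, had 7.95, 4.01, 9.25 and 11.08 on muscle arrays 1 to 4 and 3.77 ± 0.24 in heart. CPB1, a carboxypeptidase, had 8.0, 3.79, 8.70 and 9.92, CLPS, the lipase cofactor, 8.03, 4.28, 9.02 and 9.92, and CTRB2, a chymotrypsinogen, 7.28, 3.34, 7.97 and 8.26. All were raised on arrays 1, 3 and 4 and not on array 2. Of 27 pancreatic genes 6 were called lower and 4 higher. None of the 4 stayed called without array 1, 3 or 4, with differences between 1.61 and 2.99 in those fits. With array 2 left out instead, 10 were called. Over those 188 probesets the mean was 4.94, 4.4, 4.99 and 5.33 on the muscle arrays, 10.44 to 10.69 on the pancreas arrays and 4.08 to 5.30 on the rest, and 16 of the 188 were called higher in muscle, 82 lower, 5 over 10-fold higher and 0 selective. The part of these transcripts in other results was not tested.

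Markers of other cells moved between the muscle arrays too. Genes of fibroblasts and matrix had mean levels of 7.62, 8.07, 4.98 and 5.67 on arrays 1 to 4, and 2 of 28 were called higher. COL1A1, the main chain of type I collagen, had 12.32, 12.69, 8.20 and 6.82, and LUM, a proteoglycan of collagen fibres, 11.50, 10.65, 6.23 and 9.42. TNMD, tenomodulin of tendon, had 9.42 on array 2 and 3.06 to 3.67 on the others. MFAP5, a microfibril protein, was called (2.52) and lost the call without array 1 (1.87) or array 2 (1.85), and it was 3.51 without array 3. FABP4, the fatty acid binding protein of fat cells, had 10.33, 10.78, 5.01 and 10.65, and its difference of 4.22 lost the call without array 1, 2 or 4 (3.69 to 3.84) and was 5.61 without array 3. ADIPOQ, the fat cell hormone adiponectin, had 9.47 on array 1 and 6.01 to 6.42 on the others, and GPD1, glycerol-3-phosphate dehydrogenase, had 7.64, 10.40, 10.23 and 10.46 (3.78; 4.46 without array 1). Of 19 fat cell genes 3 were higher and 0 lower, and the part of these cells in the muscle results was not tested. Of 22 endothelial genes 1 was higher and 1 lower, of 17 smooth muscle genes 3 were higher and 2 lower, of 9 red blood cell genes 2 were higher, and of 17 nerve genes 3 (6 without brain arrays 1 and 3), of 20 liver plasma protein genes 6 and of 29 proliferation genes 8 were lower. Of 36 proteasome and autophagy genes 8 were higher and 1 lower (5 higher without array 3 or 4), and the proliferation count was 4 to 5 with any muscle array left out, and 4 and 2 under the 2 scalings. Over all genes 7.77% were higher and 10.1% lower. With a muscle array left out or under either scaling, the endothelial, smooth muscle and nerve counts moved by at most 2 genes. The liver count was 4 to 7 in those fits, except for 3 with the common reference genes.

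Array 1 was the lowest of the 4 for 201 of the 365 probesets over 10-fold higher in muscle (55.1%), against 62, 50 and 52 for arrays 2, 3 and 4. The low values lay mainly in probesets of the predicted-gene kind, named CfaAffx: over 47 genes with a probeset of each kind, array 1 deviated from the muscle mean by a median of -1.62 for CfaAffx probesets and -0.29 for the Cfa probesets made from expressed sequences. It was lower in the CfaAffx probeset for 38 of the 47. The cause was not tested.

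**Figure D5:**
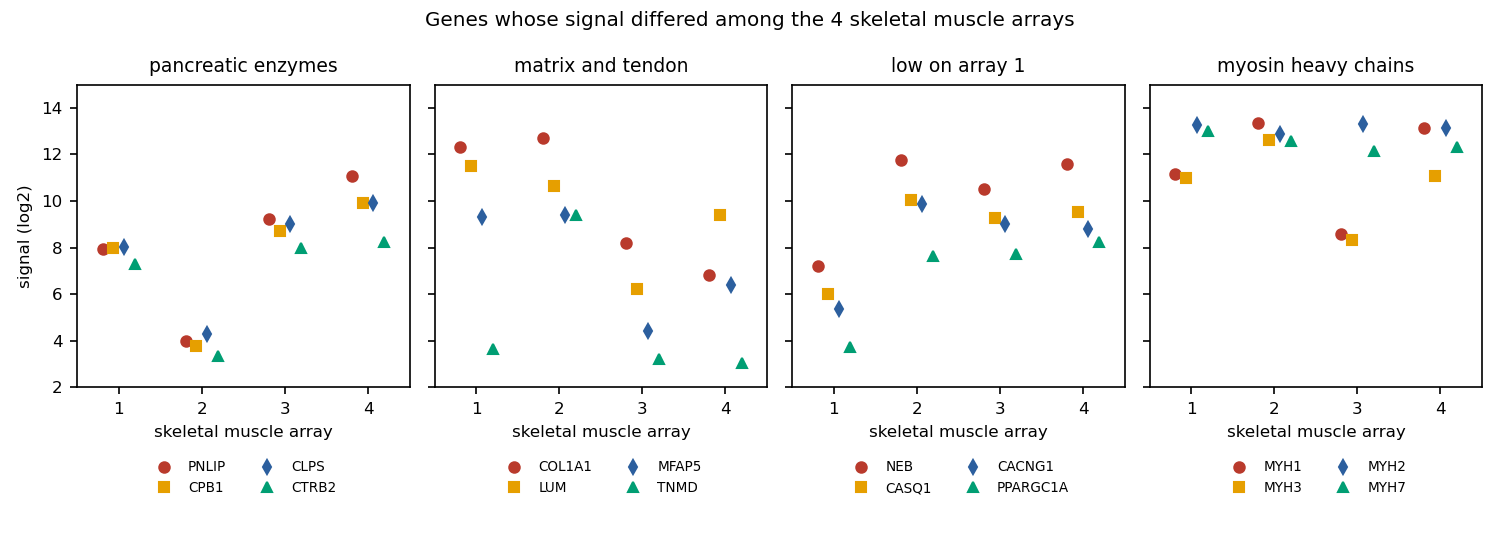
Log2 intensity (vertical axis) by muscle array 1 to 4 (horizontal axis), a marker per gene and array, in 4 panels: pancreatic enzymes, matrix and tendon genes, genes low on array 1, and myosin heavy chains. The pancreatic enzymes are low on array 2, COL1A1 is at 12.32 and 12.69 on arrays 1 and 2 and at 8.20 and 6.82 on arrays 3 and 4, and MYH1 and MYH3 are lowest on array 3.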

How the data were processed

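RNA from 39 canine samples was hybridised by the authors to Affymetrix Canine Version 2.0 arrays. The deposited values are log2 intensities, which the authors made in Partek by RMA: probe effects of GC content and sequence were adjusted, background was corrected, arrays were quantile normalized and probes were summarised by median polish. They left out 1 pancreas array. Values were used as deposited, and groups were taken from the sample labels. The platform annotation gave 29254 probesets a single symbol, 439 several and 13167 none, and 27680 matched the RefSeq gene table by Entrez identifier with 0 symbols changed. No genome positions or sequences are given.

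A mean per organ was fitted to all arrays (limma 3.58.1, R 4.3.3), with contrasts of skeletal muscle against the unweighted mean of 9 organ means and against heart. P-values were adjusted by Benjamini and Hochberg over 42860 probesets. SD is between arrays of an organ and SE is from the model. A gene was represented by the probeset of highest mean over all arrays. Precision is limited by how many arrays there are, and p-values measure only the spread between them. That spread is pooled per probeset over the arrays of all organs, and the muscle arrays differed more from each other than those of other organs. SE and p-values can therefore understate the spread within muscle for genes that varied there, such as TNNT3 (SD 0.77 in muscle).

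Genes were named by rule: the 20 largest higher with all muscle arrays above all others, the 10 largest also over 10-fold in heart, the 15 largest lower, the 10 largest lower with all muscle arrays below all others, up to 4 at either end of each of 31 lists, the 4 markers, the 5 of largest SD among the first 2 groups, and members of isoform families. Pancreatic genes were set aside from the first groups. NEB, CASQ1, ENO1, ADSS2, CPT1B, SLC25A4, PPARGC1A, CFL1, ACTG1, CA3, DLA88 and COL1A1 were chosen after their values were seen. The members and lists were chosen with earlier results of these data known.

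Array numbers were checked as a pairing. Deviations of muscle arrays from the muscle mean correlated with those of same-numbered arrays of the 9 organs (r = 0.219, 0.459, 0.146 and 0.278), so that the numbers were taken to pair the samples there, but not with heart (r = 0.176, 0.455, -0.032 and -0.008). The pairing is uncertain: muscle array 1 correlated more with number 3 (0.283), and array 3 nearly as much with number 4 (0.139). The labels do not say what a number marks and name no scan date, so no batch was fitted. Alternatives were other variance models, array weights, scalings, filters, references, thresholds, the replicate block and leaving out arrays. The fits were tested on simulated data.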

Additional observations from a re-analysis of the deposited data

Results flagged for a closer look

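An array that stood apart from the other 3 of skeletal muscle was looked for in 133 genes and in the mean levels of 31 lists, by the gap to the nearest array over the whole range (Dixon's ratio). It was found for 14 genes and 3 lists. A chance rate of 1 in 20 is no yardstick here, as the genes share the same arrays. Some of them were also chosen for their spread or after their values were seen. Array 1 was lowest for PPARGC1A (3.75), MYF6 (5.69), TBX15 (3.64) and GPD1 (7.64), and highest for COX6A2 (12.05), SLC9A3R1 (4.44), KRT18 (6.95) and ADIPOQ (9.47). Its mean level was the lowest for sarcomere structure (8.41) and for excitation-contraction coupling (5.93), and the highest for the epithelial list (4.43). Array 2 was highest for TNMD (9.42). Array 3 was lowest for TPM1 (6.31), SH3BGRL2 (4.28), SEC63 (5.14) and FABP4 (5.01). Array 4 was lowest for CD74 (5.84).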

How the results depend on the processing

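Leaving out a muscle array gave 2419 to 3200 probesets higher, 2454 to 3018 lower, 344 to 432 over 10-fold higher, 448 to 651 over 4-fold lower and 86 to 111 selective. Against heart it gave 534 to 808 higher and 933 to 1089 lower, and leaving out a heart array 492 to 507 higher and 915 to 1047 lower. None of these counts moved by over 1.5 times, whereas the counts given next did. At an equal median of the genes of broad expression 1707 were lower, 325 over 4-fold lower, and 2128 higher and 493 lower than heart. With the common reference genes, an alternative chosen after seeing the data, 657 were lower, 199 over 4-fold lower, and 389 higher and 479 lower than heart. At an FDR of 0.05 the counts were 7064 higher and 7625 lower, and 1741 and 2394 against heart, and with a 2-fold minimum 1974 were higher. Array weights gave 937 higher than heart. With muscle array 2 as the sole muscle array, assumed to vary like the other organs' arrays, 1558 were higher (73.4% of calls), 565 lower, 240 over 4-fold lower, 148 selective and 446 lower than heart, and 23 genes of oxidative phosphorylation, 10 of the citric acid cycle and 6 of fatty acid oxidation were higher.

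With the replicate number as a block, the paired fit gave 3301 higher, 3830 lower, 364 over 10-fold higher, 536 over 4-fold lower, 90 selective, and 663 higher and 1218 lower than heart. It changed no call of a named gene against the 9 organs. Against heart it lost APOBEC2 (adjusted p = 0.00102) and gained PTPRK, TKT and DLA-79.

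Against the median of the other organs, MYBPC3 (0.21), MYL7 (0.05), RYR2 (0.07) and CORIN (0.04) turned positive. Without heart in the reference only MYBPC3 turned positive (0.21). On muscle array 2 alone PNLIP (-1.12), CPB1 (-1.12), CLPS (-1.02) and CTRB2 (-1.24) turned negative, and by the probeset of largest difference TPM1 was at 4.06.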
